A study of Mus musculus with 17 samples.

Results

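The OAS family of interferon-inducible genes was followed in mouse hearts, gene by gene and heart by heart. Its 8 members described here, Oas1a, Oas1b, Oas1c, Oas1g, Oas2, Oas3, Oasl1 and Oasl2, were taken by name from the 56748 genes of the count table, and all 8 passed the filter on low counts. Gene expression had been measured by poly(A)-selected RNA sequencing of heart tissue from 17 mice aged 12 to 16 months, 1 library per mouse. The 9 hMut mice carried 2 copies of an inducible allele, Polg iMut, and 1 Ckmm-cre transgene (Polg iMut/iMut; +/Ckmm-cre), which removes a floxed wild-type Polg cassette in striated muscle, so that cardiomyocytes express a proofreading-deficient mitochondrial DNA polymerase and collect mtDNA mutations. Ckmm-cre also acts in skeletal muscle and not in the non-muscle cells of the heart, although RNA of those heart cells is in a heart tissue library too. The 8 controls are labelled Ctrl only, and neither the labels nor the methods text used here gives their exact Polg and cre genotype. The comparison asks whether transcript levels of this family differ in hearts with mtDNA mutations.

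The OAS proteins are sensors of double-stranded RNA. Once bound to it, the active ones join ATP into short oligoadenylates, second messengers that lead to the decay of cellular and viral RNA and to slower translation. The genes are expressed at a low basal level in most cells and are switched on by type I, II and III interferons through interferon-stimulated response elements (ISREs) in their promoters. Whereas human cells have a single OAS1 gene, the mouse has a tandem cluster of Oas1 copies.

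All members lie on chromosome 5 (GRCm39). Oasl2 (115034997 to 115050295, plus strand) and Oasl1 (115061299 to 115075974, plus strand) are neighbours in one place. The others form a second cluster, in which Oas2 (120868398 to 120887918), Oas3 (120891163 to 120915726), Oas1c (120938259 to 120950579), Oas1g (121014205 to 121025676) and Oas1a (121034319 to 121045584) are on the minus strand and Oas1b (120950700 to 120962228) is on the plus strand. Of the remaining copies in that cluster, Oas1d had at most 2 counts in any heart, Oas1e at most 1, Oas1f at most 2 and Oas1h at most 20, and none passed the filter.

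Oas1a and Oas1g are close copies. Their coding sequences were identical at 1068 of 1104 aligned bases (96.7%), against 79.9% for Oas1a and Oas1b and 76.3% for Oas1a and Oas1c. Of all 100-base windows of the canonical Oas1a transcript, 40.3% were also found letter for letter in Oas1g, and 38.2% of those of Oas1g were found in Oas1a. With 150-base windows these shares were 32.0% and 30.1%. Reads from those stretches have 2 equally good sources, and how such reads were counted is not given in the sources used here, so the split between Oas1a and Oas1g is uncertain. At 100 bases, Oas1b, Oas3, Oasl1 and Oasl2 shared no window with any other annotated transcript. Oas1c shared 4.47% and Oas2 2.11% of its windows with a long noncoding RNA annotated on the opposite strand, and without a stated strand setting these reads too cannot be told apart.

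Oas1b of the C57BL/6 reference genome has a premature stop, which is why the lines below set it beside the same stretch of its expressed copies. This stop is the basis of the well-known susceptibility of most laboratory strains to flaviviruses. It lies in exon 4 of 6, at bases 120959373 to 120959375 of chromosome 5, as codon 253, and ends the open frame after 759 of 1131 annotated coding bases. The sequences (GENCODE M39 on GRCm39, coding strand, 5′ to 3′) end with that codon in capitals.
Oas1b, codon 253: aaattcaacacagcccagggcttcTGA
Oas1a, codon 258: gagttcaacacagcccagggcttcCGG
Oas1g, codon 258: gagttcaacacagcccagggcttcCGG
Oas1c, codon 263: aaagtaaccacagccaagaacttcCGG
The Oas1b counts below therefore measure a transcript whose reference frame is truncated, and they say nothing about protein.

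The promoters of the members were read for the ISRE because the genes were high together in the same hearts. The letters searched were GAAANNGAAA on both strands, from 250 bases before to 50 after the start of each canonical transcript. They were found in 6 of 8 members, against 3.84% of 21757 protein-coding promoters of the same length, and in none of Oas1d, Oas1e, Oas1f and Oas1h. Each stretch is given on the strand of its gene with the matching run, in which matches can overlap, in capitals.
Oas1a, chr5:121045586-121045615, minus strand: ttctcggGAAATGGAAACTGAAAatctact
Oas1g, chr5:121025672-121025701, minus strand: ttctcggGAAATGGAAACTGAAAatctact
Oas1b, chr5:120950671-120950700, plus strand: ttcccggGAAATGGAAACTGAAAgtcccat
Oas1c, chr5:120950671-120950700, minus strand: atgggacTTTCAGTTTCCATTTCccgggaa
Oas2, chr5:120887972-120887997, minus strand: cacttgagTTTCGATTTCctaggttc
Oas3, chr5:120915782-120915807, minus strand: agggaggaGAAAACGAAAgtgaaggg
Oas1b and Oas1c point away from each other and have the same stretch between them, read from opposite strands. The stretches of Oas1a and Oas1g were identical. In Oas1a the run lies at bases 3 to 18 after the start of the canonical transcript, but upstream of the gene as bounded in the count table. No match was found in the windows of Oasl1 and Oasl2. These matches describe letters and not binding.

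Total counts per library were 34425783 to 46486964 in Ctrl and 32915159 to 40175122 in hMut hearts. A floor of 3 counts corresponds to 0.0676 to 0.0951 CPM (counts scaled to edgeR's TMM library sizes). Polg, whose locus is altered in hMut mice, was at 34.7 ± 7.31 CPM in Ctrl (SD, n = 8) and 57.9 ± 6.08 CPM in hMut hearts (SD, n = 9), with 8 of 9 hMut hearts higher than the highest control. The cardiomyocyte markers Myh6, Tnnt2, Actn2, Ryr2, Tnni3 and Myl2 together gave 29050 to 35490 CPM in Ctrl hearts. hMut replicates 6 and 9 stood apart from the rest of their group in many genes: 31.1% and 27.9% of the 16195 tested genes were above every Ctrl heart in them, against 10.9% to 17.7% in the other hMut hearts. Each log2 fold change of a member below is given with and without these 2 hearts.

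In Ctrl hearts the family was present at low levels. Per length (TPM, counts divided by the gene lengths of the table and scaled to an equal sum in every library), Oas2 was first with 6.91 ± 1.47 TPM (SD, n = 8), and Oas1a followed with 5.18 ± 1.28 TPM. Oasl2 had 4.19 ± 0.714 TPM, Oas1b 2.32 ± 0.381 TPM and Oasl1 1.60 ± 0.623 TPM. The lowest levels per length were those of Oas1g (0.829 ± 0.333 TPM), Oas1c (0.810 ± 0.169 TPM) and Oas3 (0.205 ± 0.103 TPM). The first places of this order depended on the length used. With the lengths of the canonical transcripts, an alternative chosen after seeing the data, Oasl2 came first at 4.05 ± 0.523 CPM per kb (SD, n = 8), before Oas2 at 3.77 ± 0.793 and Oas1a at 2.42 ± 0.535 CPM per kb, and the order of the other 5 was kept. The table gives Oasl2 a length of 6374 bases against 3123 of its canonical transcript. The place of Oas1a also rests on its uncertain split from Oas1g. By the table's lengths, Oas2 exceeded Oas1a in 7 of 8 Ctrl hearts, Oas1a exceeded Oasl2 in 7, and Oas1c exceeded Oas3 in 8. Oas1g and Oas1c could not be ordered, since each was the higher in 4 of 8 hearts.

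Between the genotypes, no OAS gene passed the test. All 8 log2 fold changes of hMut over Ctrl were positive, from 0.23 for Oas1b to 1.82 for Oas3 (median 0.63, against 0.0023 over all 16195 tested genes), but the adjusted p-values of edgeR's quasi-likelihood test ran from 0.0882 to 0.649. Over all tested genes 3.48% were called higher and 1.14% lower in hMut hearts, so the share of 0 among 8 members was near the background. Unadjusted p-values under 0.05 were obtained for Oas3 and Oasl1, 2 of 8, against 4178 of 16195 genes. DESeq2, with or without replacement of outlying counts, called 1 of 8 members, Oas3, near its own shares of 10.2% and 9.47% called in either direction over all genes it gave an adjusted p. For 6 of 8 members the log2 fold change was below 0 once hMut replicates 6 and 9 were left out, for Oas1g only at -0.0020 ± 0.30 (SE). These were the highest hMut hearts for every member, and no Ctrl heart was left out in turn. Leaving them out therefore lowers each fold change by construction, and the signs describe the remaining hearts only.

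**Figure D1:**
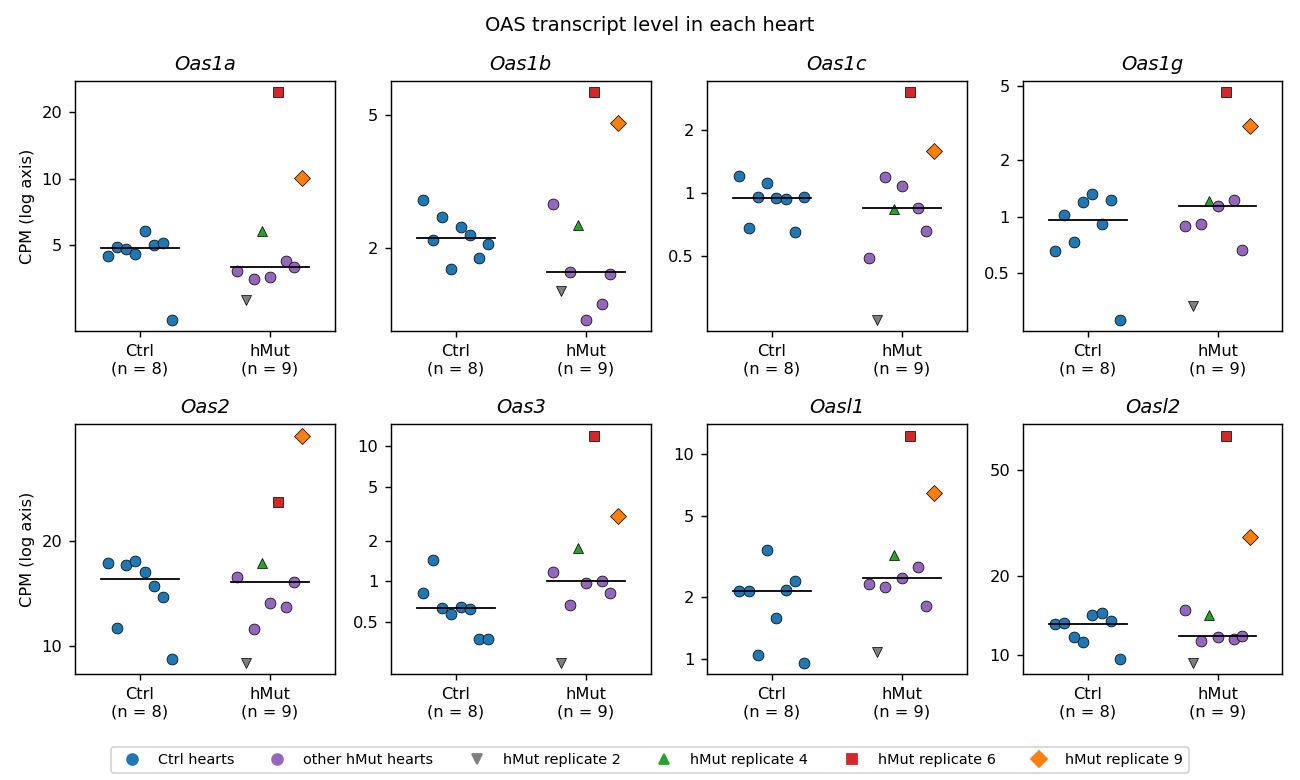
Level of each OAS gene in every heart, in CPM on a log axis (different range in each panel), for 8 Ctrl and 9 hMut hearts; horizontal lines are group medians and symbols mark hMut replicates 2, 4, 6 and 9. Replicates 6 and 9 lie above every Ctrl heart for all 8 genes, replicate 6 is the highest for 7 genes, and replicate 9 is the highest for Oas2.

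Among the Oas1 copies, Oas1a and Oas1g encode active synthetases in the mouse. Oas1a ranged in Ctrl hearts from 2.30 CPM over a median of 4.85 to 5.79, and in hMut hearts from 2.83 over a median of 3.98 to 24.5 CPM. The highest value was hMut replicate 6 and the next, 10.1 CPM, was hMut replicate 9. The other 7 hMut hearts, at 2.83 to 5.78 CPM, lay within the Ctrl range. The low end of that range is Ctrl replicate 8 alone, and the next lowest control was at 4.47 CPM. hMut replicates 1, 2, 3, 5, 7 and 8, at 2.83 to 4.24 CPM, were below every control but Ctrl replicate 8. The log2 fold change was 0.59 ± 0.38 (SE; edgeR adjusted p = 0.329), and without replicates 6 and 9 it was -0.22 ± 0.16 (adjusted p = 0.506). DESeq2 gave 0.0245 for Oas1a when it replaced outlying counts by imputed ones and 0.58 when it did not.

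Oas1g was lower in every heart, from 0.279 over a median of 0.962 to 1.32 CPM in Ctrl and from 0.330 over a median of 1.14 to 4.64 CPM in hMut hearts. Replicates 6 (4.64 CPM) and 9 (3.07 CPM) were again the only hMut hearts above the Ctrl range. The log2 fold change of 0.78 ± 0.43 (SE; edgeR adjusted p = 0.252) was -0.0020 ± 0.30 without them. Per 100 counts of Oas1a there were 12.1 to 26.2 counts of Oas1g in Ctrl hearts, 18.9 in hMut replicate 6 and 30.4 in replicate 9. Because of the shared stretches, the counts of both genes were also summed, which gave 5.54 ± 1.33 CPM in Ctrl hearts (SD, n = 8), 29.2 CPM in replicate 6 and 13.2 CPM in replicate 9, with a log2 fold change of 0.62 ± 0.39 (SE; edgeR adjusted p = 0.306). Summing all 8 Oas1 genes gave 0.50 ± 0.34 (SE; edgeR adjusted p = 0.352), and the same 2 hearts were above every Ctrl heart.

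Oas1b, the copy with the premature stop, ranged from 1.74 over a median of 2.15 to 2.78 CPM in Ctrl hearts. In hMut hearts it ran from 1.22 over a median of 1.70 to 5.85 CPM. The hMut hearts lay on both sides of the controls: replicates 6 (5.85 CPM) and 9 (4.73 CPM) were above every Ctrl heart, and 5 hearts, replicates 2, 3, 5, 7 and 8, were below every Ctrl heart, at 1.22 to 1.70 CPM. Of all tested genes, 10.4% were below every Ctrl heart in replicate 2. This share was not taken for the other hearts, so whether the low side of Oas1b is unusual is not known. The log2 fold change was 0.23 ± 0.29 (SE; edgeR adjusted p = 0.624) over all hearts and -0.29 ± 0.17 without replicates 6 and 9 (adjusted p = 0.355). It was already slightly below 0, at -0.02, when only replicate 6 was left out.

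Oas1c, which shares its promoter interval with Oas1b, was at 0.647 to 1.20 CPM in Ctrl hearts (median 0.947) and at 0.248 to 3.01 CPM in hMut hearts (median 0.843). These levels rest on few counts, 24 to 44 per Ctrl heart. hMut replicate 6 was at 3.01 and replicate 9 at 1.58 CPM, while replicates 1 (0.487 CPM) and 2 (0.248 CPM) were below every Ctrl heart. The share of all tested genes below every Ctrl heart was 10.4% in replicate 2 and was not taken for replicate 1. The log2 fold change of 0.26 ± 0.34 (SE; edgeR adjusted p = 0.649) turned to -0.09 without replicate 6 alone and to -0.27 ± 0.25 without replicates 6 and 9.

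Oas2 encodes a larger synthetase with a pair of OAS units. It ranged from 9.13 over a median of 15.5 to 17.5 CPM in Ctrl hearts and from 8.91 over a median of 15.3 to 40.1 CPM in hMut hearts. Here the highest heart was hMut replicate 9, at 40.1 CPM, and replicate 6 came next, at 25.8 CPM. The other 7 hMut hearts were at 8.91 to 17.2 CPM and overlapped the controls. The log2 fold change was 0.29 ± 0.24 (SE; edgeR adjusted p = 0.458), and -0.11 ± 0.15 without the 2 hearts.

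Oas3 encodes the longest synthetase, with repeated OAS units. It had the lowest level per length of the family in Ctrl hearts and the largest log2 fold change, 1.82 ± 0.62 (SE; edgeR adjusted p = 0.0882, unadjusted p = 0.00842). Ctrl hearts ranged from 0.371 over a median of 0.629 to 1.44 CPM, and hMut hearts from 0.248 over a median of 1.01 to 12.0 CPM. hMut replicate 6 had 507 counts against 15 to 51 in Ctrl hearts, which made it 17.5-fold above the Ctrl mean, and replicate 9 was 4.48-fold above it. Replicate 4, at 1.77 CPM, was also above every Ctrl heart. Both a change of tool and a change of samples brought Oas3 past the threshold: DESeq2 with replacement of outlying counts (adjusted p = 0.038) or without it (adjusted p = 0.0398), and leaving out hMut replicate 2, the lowest heart (edgeR log2 fold change 1.98, adjusted p = 0.0373). Other tools did not bring it past the threshold: limma-voom with sample weights gave 0.65 ± 0.37 (adjusted p = 0.249), edgeR's robust fit gave an adjusted p of 0.0988, and the replicate block, in which hMut replicate 9 has no Ctrl partner, gave 0.94 ± 0.56 (edgeR adjusted p = 0.384). Leaving out hMut replicate 6 gave 0.84, and leaving out replicates 6 and 9 gave 0.48 ± 0.33 (SE; edgeR adjusted p = 0.465).

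The OAS-like genes encode proteins with ubiquitin-like domains. Mouse Oasl1 is known as a catalytically inactive brake on the translation of Irf7, whereas Oasl2 has kept synthetase activity. Oasl1 ranged from 0.952 over a median of 2.15 to 3.38 CPM in Ctrl hearts and from 1.07 over a median of 2.47 to 12.3 CPM in hMut hearts. hMut replicates 6 (12.3 CPM) and 9 (6.45 CPM) were above every Ctrl heart and the other hMut hearts were not. Its log2 fold change was 0.97 ± 0.41 (SE; edgeR adjusted p = 0.150, unadjusted p = 0.0288), and 0.21 ± 0.25 without these 2 hearts.

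Oasl2 varied least among Ctrl hearts relative to its mean, from 9.66 over a median of 13.2 to 14.5 CPM. The hMut hearts ranged from 9.35 over a median of 11.9 to 67.6 CPM, with replicate 6 at 67.6 and replicate 9 at 28.0 CPM. Replicate 1, at 14.8 CPM, exceeded the highest Ctrl heart narrowly. The log2 fold change of 0.67 ± 0.34 (SE; edgeR adjusted p = 0.221) became -0.060 ± 0.098 when replicates 6 and 9 were left out. With DESeq2's replacement of outlying counts Oasl2 was at 0.14, and without that step at 0.66.

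**Figure D2:**
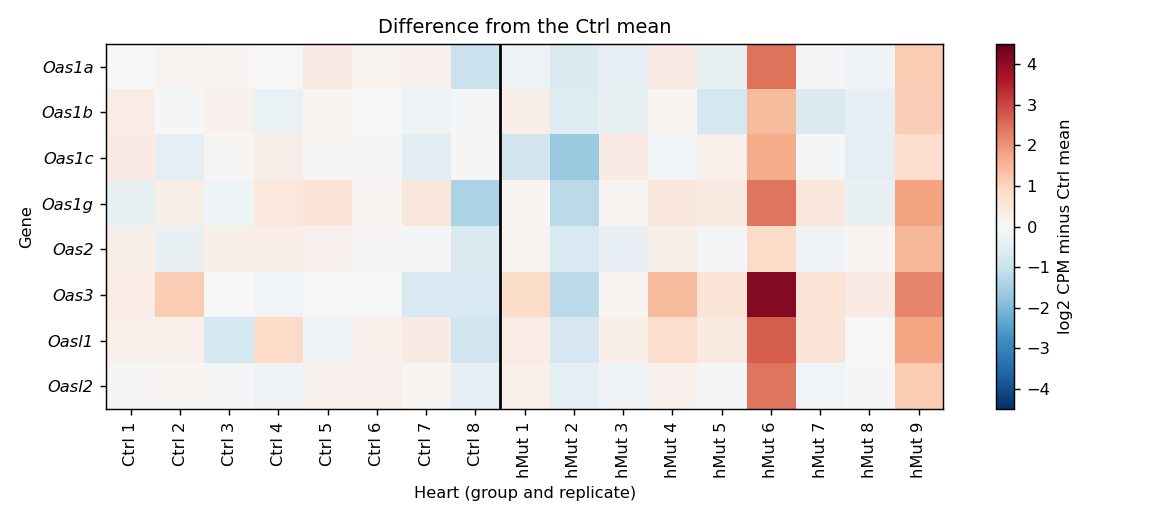
Difference from the Ctrl mean in log2 CPM (colour, red above and blue below) for 8 OAS genes (rows) in 8 Ctrl and 9 hMut hearts (columns). The mean over the 8 genes is 2.25 in hMut replicate 6 and 1.43 in hMut replicate 9, and lies between -0.891 and 0.438 in the other hMut hearts.

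Counted by heart, all 8 members were above every Ctrl heart in hMut replicate 6, where 31.1% of all tested genes were, and all 8 in replicate 9, where 27.9% were. Both hearts were above every Ctrl heart for 20.5% of all tested genes. In no other hMut heart did more than 1 member exceed the controls: Oasl2 in replicate 1 (background 11.0%), Oas3 in replicate 4 (14.7%), and none in replicates 2 (10.9%), 3 (13.7%), 5 (16.0%), 7 (17.7%) and 8 (15.6%). No member had all 9 hMut hearts above all 8 Ctrl hearts, a pattern found in 0.543% of tested genes. At the other end, hMut replicate 2 was below every Ctrl heart for 5 of 8 members, Oas1b, Oas1c, Oas2, Oas3 and Oasl2, against 10.4% of all tested genes. The mean difference from the Ctrl mean over the 8 members was -0.89 log2 units there. Replicate 4 had the next highest mean after replicates 6 and 9, at 0.44 log2 units, and the number of its members above the controls depended on the scaling: it was 1 with TMM and 4 with total counts without mtDNA-encoded genes.

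**Figure D3:**
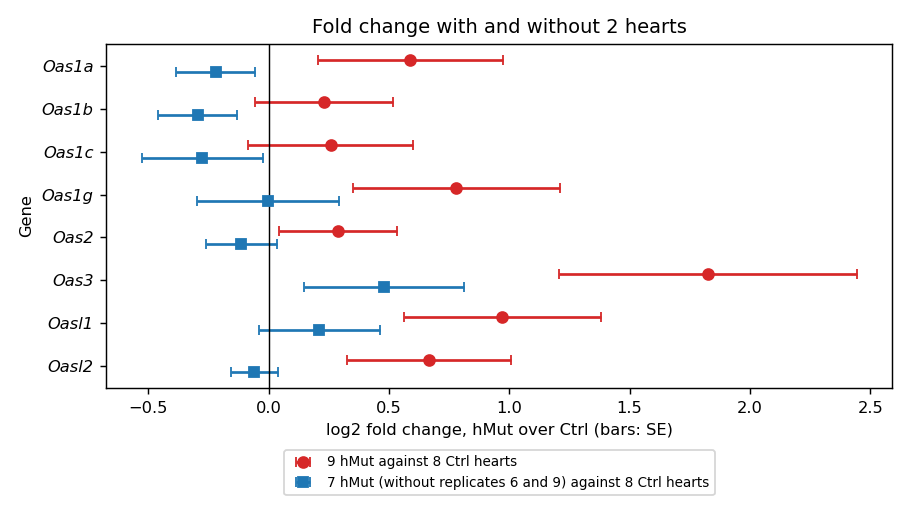
log2 fold change of hMut over Ctrl with its SE (bars) for each OAS gene, from edgeR fits with all 9 hMut hearts (circles) and with 7 hMut hearts after leaving out replicates 6 and 9 (squares), against 8 Ctrl hearts. All 8 circles are above 0, and 6 of 8 squares are below 0, the exceptions being Oas3 at 0.48 and Oasl1 at 0.21. Replicates 6 and 9 are the highest hMut hearts for every gene, so the squares are lower by construction.

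Replicates 6 and 9 did not show the same pattern across the family. In replicate 6 the members were 1.77-fold (Oas2) to 17.5-fold (Oas3) above the Ctrl mean, and in replicate 9 they were 1.70-fold (Oas1c) to 4.48-fold (Oas3) above it. For 7 members the level was higher in replicate 6, with a ratio of replicate 6 to replicate 9 from 1.24 for Oas1b (95% exact interval 1.02 to 1.49, counting error only) to 3.92 for Oas3 (3.24 to 4.77). For Oas2 the order was the opposite, with a ratio of 0.644 (0.596 to 0.694) on 1090 and 1780 counts. Among 45 other tested genes of RNA sensing, interferon signalling, antiviral defence and its brakes, 35 were above every Ctrl heart in both replicates. The share over all tested genes was 20.5%. All 35 of these listed genes were higher in replicate 6. Oas2 was thus set apart from the other members and from these genes, as a value of 1 heart against 1 heart, with no replicate check. Outside the members, Oas1h, which did not pass the filter, had the same order as Oas2, with 9 counts in replicate 6 and 20 in replicate 9.

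**Figure D4:**
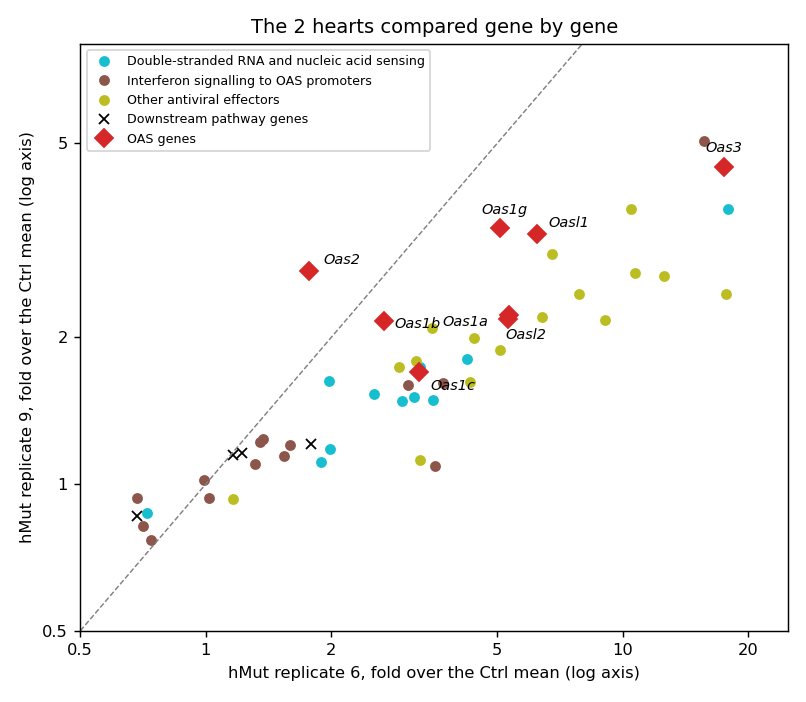
Fold over the Ctrl mean in hMut replicate 6 (x, log axis) and hMut replicate 9 (y, log axis) for the OAS genes and for listed genes of 4 related groups; the dashed line marks equal folds. Oas2, at 1.77-fold and 2.74-fold, is the OAS gene above the line, whereas Oas3, at 17.5-fold and 4.48-fold, lies farthest to the right among the OAS genes.

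Per length, the order of the family in these 2 hearts was not that of the Ctrl hearts. By the table's lengths, Oas1a led in hMut replicate 6 with 37.8 TPM, followed by Oasl2 with 30.8, Oas2 with 16.9 and Oasl1 with 13.7 TPM. Oas3, last of all in Ctrl hearts, reached 4.93 TPM and passed Oas1c at 3.63 TPM. In replicate 9 Oas2 led with 22.6 TPM, before Oas1a with 13.5 and Oasl2 with 11.0 TPM. The order in these hearts too depended on the length: with canonical transcript lengths, Oasl2 (21.6 CPM per kb) came before Oas1a (12.8) and Oas2 (6.65) in replicate 6, whereas Oas2 (10.3) still led in replicate 9, before Oasl2 (8.98) and Oas1a (5.29 CPM per kb). Relative to the Ctrl mean, the median of the other 7 hMut hearts was lowest for Oas1b (1.90 against 2.32 TPM) and highest for Oas3 (0.327 against 0.205 TPM). TPM levels of Ctrl and hMut hearts are not on an equal footing, because the scaling sum includes mtDNA-encoded genes. These held 23.53% to 30.91% of counts in Ctrl and 15.94% to 23.02% in hMut libraries. For Oas2 this median was above the Ctrl mean in TPM (7.62 against 6.91) but below it in CPM (13.29 against 14.63). Oasl2 (4.35 against 4.19 TPM, 11.76 against 12.65 CPM) and Oas1g turned likewise, and the other members kept their direction. Oasl1 was above Oas1b in 6 of 9 hMut hearts, whereas Oas1b exceeded Oasl1 in 7 of 8 Ctrl hearts.

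**Figure D5:**
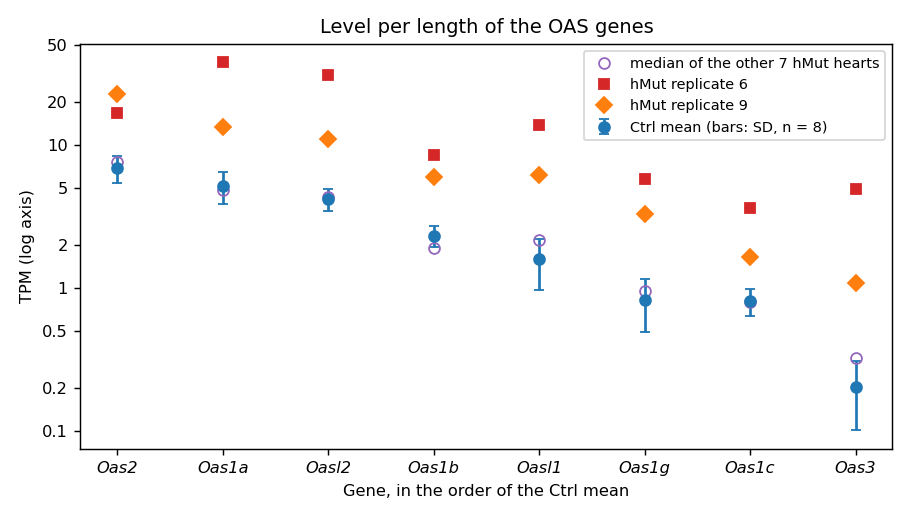
Level per length (TPM, log axis) of each OAS gene, as the Ctrl mean with its SD (n = 8), the median of the other 7 hMut hearts, and the values of hMut replicates 6 and 9. Genes are in the order of their Ctrl mean; by the table's gene lengths, Oas1a is the highest in replicate 6 at 37.8 TPM and Oas2 in replicate 9 at 22.6 TPM. The sum that scales TPM includes mtDNA-encoded genes, whose share of counts was lower in hMut than in Ctrl libraries.

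Downstream of the synthetases, genes that act on oligoadenylates or on the response to them were tested as well. Abce1, whose product inhibits this response and is also needed to recycle ribosomes, was called, with 77.3 ± 4.62 CPM in Ctrl hearts (SD, n = 8) and a log2 fold change of 0.17 ± 0.044 (SE; edgeR adjusted p = 0.0400). Its call was lost in 10 of 17 fits that left out 1 heart each, namely without Ctrl replicate 1, 5, 6, 7 or 8 or hMut replicate 3, 5, 6, 7 or 9 (edgeR adjusted p from 0.0137 to 0.0843 over all 17), and without replicates 6 and 9 together (adjusted p = 0.0995). With the replicate block it was lost too (adjusted p = 0.160). Of the enzymes that break down oligoadenylates, Pde12 had a log2 fold change of 0.11 ± 0.059 (SE; edgeR adjusted p = 0.257), Akap7 -0.16 ± 0.064 (adjusted p = 0.126) and Enpp1 0.15 ± 0.17 (adjusted p = 0.580). No ISRE letters were found in the promoter windows of Abce1, Pde12, Akap7 and Enpp1.

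Upstream, no gene of the interferon path to the OAS promoters was called. For reference, 3.48% of all tested genes were called higher and 1.14% lower, and 4178 of 16195 had an unadjusted p under 0.05 in edgeR. In hMut replicates 6 and 9, 31.1% and 27.9% of all tested genes were above every Ctrl heart. Of 11 tested genes for sensing double-stranded RNA and other nucleic acids, 0 were called (median log2 fold change 0.36), although 10 were above every Ctrl heart in replicate 6 and 10 in replicate 9; in edgeR 1 of 11 had an unadjusted p under 0.05. Zbp1, a sensor of Z-form nucleic acids, had the smallest adjusted p there (log2 fold change 1.65 ± 0.65, edgeR adjusted p = 0.130). Of 15 interferon receptor and signalling genes 0 were called (4 at an unadjusted p under 0.05). Irf7, which drives the interferon feedback loop, came nearest, with 1.72 ± 0.55 (edgeR adjusted p = 0.0727). Its level was 220.4 CPM in replicate 6 and 70.8 CPM in replicate 9, against 14.0 ± 2.12 CPM in Ctrl hearts (SD, n = 8). Il10rb, a receptor chain for type III interferons and IL-10, was next with -0.20 ± 0.063 (edgeR adjusted p = 0.0739). DESeq2 called Il10rb (adjusted p = 0.0437 with replacement of outlying counts, 0.0459 without), and Irf7 only without the replacement (adjusted p = 0.0275). Among 16 other antiviral effectors 0 were called in edgeR and 9 had an unadjusted p under 0.05, the smallest adjusted p being that of Ifit1 (1.59 ± 0.62, edgeR adjusted p = 0.128). Of 4 interferon brakes 0 were called (2 at an unadjusted p under 0.05), with Socs1 at 1.10 ± 0.46 (edgeR adjusted p = 0.149).

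The interferons themselves were hardly detected. Of 21 ligand genes, 14 had 0 counts in every heart, which allows up to 0.0951 CPM in Ctrl replicate 3, the library with the highest floor, and none passed the filter. Only 2 exceeded 5 counts in any heart. Ifng, the type II interferon made by T and NK cells, had 54 counts in hMut replicate 6 and at most 2 in any Ctrl heart and 1 in replicate 9. Ifnl2, a type III interferon, had 7 counts in replicate 9, 0 in replicate 6 and at most 1 in any Ctrl heart, and its near-identical copy Ifnl3 had 0. Poly(A) RNA of whole tissue at this depth does not show whether ligand made by few cells was absent.

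The 5 genes outside the family whose levels ran most like it over the 17 hearts were Isg15, Rad51ap1, Mink1, Slfn2 and Xaf1. Likeness was Spearman's rho with the mean of the 8 members (log2 CPM, each centred on its Ctrl mean), and it was 0.865, 0.863, 0.855, 0.855 and 0.853. Over the 15 hearts without replicates 6 and 9, rho was 0.804, 0.800, 0.793, 0.789 and 0.786. Isg15, a ubiquitin-like interferon-stimulated protein, was at 5.45 ± 1.33 CPM in Ctrl hearts (SD, n = 8), 49.4 CPM in replicate 6 and 11.8 CPM in replicate 9. These are the highest values among all tested genes over shared libraries and are given as a description. Among the members themselves, the 28 pairs had a median rho of 0.484 and a highest of 0.779 over 17 hearts, and from -0.311 to 0.679 (median 0.250) over the 15.

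Marker genes of several cell types moved with the OAS genes in the same 2 hearts. For reference, 31.1% of all tested genes were above every Ctrl heart in replicate 6, 27.9% in replicate 9 and 20.5% in both. All 8 macrophage markers were above every Ctrl heart in both, with a summed level of 603 CPM in replicate 6 and 336 CPM in replicate 9 against 139 to 193 CPM in Ctrl and 160 to 204 CPM in the other hMut hearts. All 6 T cell markers were above every Ctrl heart in replicate 6 (summed 67.4 CPM) and 0 of 6 in replicate 9 (6.99 CPM), against 2.07 to 9.89 CPM in Ctrl hearts. The Ctrl median was 3.10 CPM, and the other hMut hearts were at 1.87 to 4.25 CPM, so the sum of replicate 9 exceeded these. The highest Ctrl sum was that of Ctrl replicate 3, as it was for NK cell, B cell and dendritic cell markers and for Ptprc. The 4 NK cell markers summed to 13.9 CPM in replicate 6 and 1.62 CPM in replicate 9, against 0.395 to 2.32 CPM in Ctrl hearts. Of these, 2 of 4 were above every Ctrl heart in replicate 6 and 1 of 4 in replicate 9. In replicate 6 these were Nkg7 (10.9 CPM) and Prf1 (2.30 CPM), whereas Ncr1 (0.403 CPM) and Klrb1c (0.332 CPM) were within the Ctrl range. For dendritic cells, 3 of 5 markers were above every Ctrl heart in both replicates (summed over all 5, 62.9 and 33.9 CPM against 19.7 to 31.6). Siglech (0.213 and 0.180 CPM against 0.174 to 0.729) and Zbtb46 (20.4 and 26.15 CPM against 16.06 to 26.7) were within the Ctrl range. Zbtb46 made up most of the sum in replicate 9. Ptprc, which marks all leukocytes, was at 82.1 and 32.6 CPM against 8.66 to 27.9. B cell markers were above every Ctrl heart for 0 of 4 in both, and their highest sum, 41.3 CPM, was in Ctrl replicate 3, whose mean difference from the Ctrl mean over the 8 members was -0.0594 log2 units. Neutrophil markers were above for 1 of 4 in each (7.79 and 6.42 CPM against 2.09 to 6.29). All 3 fibroblast markers were above in both (798 and 727 CPM against 518 to 602), and of 3 endothelial markers 0 were above in replicate 6 and 2 in replicate 9 (635 and 759 CPM against 544 to 696). The 6 cardiomyocyte markers had 0 above in either. Their sum was 22490 and 20640 CPM, against 29050 to 35490 CPM in Ctrl and 27360 to 34060 CPM in the other hMut hearts. Lower levels were not limited to these 2 hearts. Tnni3 was below every Ctrl heart in 8 of 9 hMut hearts, Tnnt2 and Myl2 in 7, Myh6 in 3, Ryr2 in 2 and Actn2 in 1. The share of all tested genes below every Ctrl heart was taken for replicate 2 only (10.4%), so these counts lack a full background. In edgeR 5 of 6 cardiomyocyte markers had an unadjusted p under 0.05 (median log2 fold change -0.249). No marker of any list was at 0 counts in replicate 6 or 9. Across these 10 lists 1 gene, the endothelial Kdr, passed the test between the genotypes (log2 fold change 0.39 ± 0.10, edgeR adjusted p = 0.0407). Of all tested genes 3.48% were called higher and 1.14% lower. The part of these cells in the OAS levels was not tested, and in bulk tissue more cells of a type and more RNA per cell cannot be told apart.

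The genes around the clusters were examined for the same pattern. Of 52 genes within 250 kb of a member, 22 passed the filter, and 8 of these (36.4%) were above every Ctrl heart in replicate 6, 12 (54.5%) in replicate 9 and 7 (31.8%) in both, where the shares over all tested genes were 31.1%, 27.9% and 20.5%. Their median log2 fold change was 0.085. One was called, Unc119b, 184635 bases from Oasl1, with a log2 fold change of 0.41 ± 0.097 (SE; edgeR adjusted p = 0.0243). Its level in replicate 6 was 34.8 CPM against 24.8 ± 3.28 CPM in Ctrl hearts (SD, n = 8), a 1.40-fold difference, while Oasl1 was 6.24-fold above its Ctrl mean in that heart. In replicate 9, its highest heart, Unc119b was at 42.5 CPM, 1.71-fold above its Ctrl mean, and Oasl1 was 3.26-fold above its own.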

How the data were processed

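The deposited table holds raw gene counts for 17 libraries. According to the submitters' processing notes and the methods text, the authors used fastp for trimming, HISAT2 2.2.1 for alignment to GRCm39, featureCounts 2.0.6 for counting and DESeq2 1.42.0 for testing. Strand setting, treatment of reads with several matches and annotation release are not given in the sources used here. The other deposited column used, gene length per gene, is the authors' own.

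Groups and replicate numbers came from the labels. Counts were tested with edgeR 4.0.16 (filterByExpr, TMM, quasi-likelihood F test, Benjamini-Hochberg adjustment over 16195 genes, threshold 0.05), with 8 Ctrl against 9 hMut hearts and no covariate. Alternatives used DESeq2 1.42.0 and limma 3.58.1. Logged CPM used a prior count of 2. Intervals and floors cover counting error only. The script was tested on simulated data for hMut against Ctrl: of 200 genes changed 2-fold among 16195, 80.5% were called, with 5 false calls. This rate checks the script and does not give the power for the members, whose SE was 0.24 to 0.62 log2 units. Sequences came from GRCm39 with GENCODE M39, and coding sequences were aligned pairwise with Biopython 1.88. No table of proteins was used here.

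The members and gene lists were chosen with earlier results of these data known. Named were all members, the downstream genes of the pathway, the genes of the other lists with the smallest adjusted p, the 5 most alike genes and called neighbours. Same-numbered Ctrl and hMut libraries did not deviate together (correlations of deviations -0.225 to 0.339, 1 of 8 above 0.1), so numbers were not taken as pairs. No 2 libraries were identical. mtDNA mutation burden per heart was not used here. Some listed genes are not reported here.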

Additional observations from a re-analysis of the deposited data

Results flagged for a closer look

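In 16 examinations of 8 genes in 2 groups for a heart far from the rest of its group (Dixon's gap criterion at 95%, log2 CPM), 2 stood out, and chance alone gives about 1 in 20. Both were the same control: Oas1a at 2.30 CPM in Ctrl replicate 8, with a gap of 0.718 of the group's range, and Oas1g at 0.279 CPM in the same heart, with a gap of 0.533 of the range. These 2 genes have long stretches of identical sequence and how reads from them were counted is not given in the sources used here. Over the 8 members this control lay 0.63 log2 units below the Ctrl mean (-0.627). With a pair of high hearts in the hMut group, the gap from the highest to the next does not single out hMut replicate 6 or 9.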

How the results depend on the processing

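The number of members past the threshold was 0 and became 1 (Oas3) with DESeq2 in both forms; with 1 heart left out it ran from 0 to 1. The number of 50 tested pathway genes past it was 1 (Abce1). It was 2 with DESeq2 with replacement of outlying counts, 3 with DESeq2 without it, 2 with limma-voom and sample weights, 0 without the filter on low counts, 0 without hMut replicates 6 and 9, and 0 to 4 with 1 heart left out, 4 being reached without hMut replicate 2. The count over all genes moved from 749 to 463 without the filter, 431 without replicates 6 and 9, 1524 and 1540 with DESeq2 (with and without replacement), 2081 with limma-voom, and 395 to 1792 with 1 heart left out. Oas3 passed with DESeq2 (1.81) and without hMut replicate 2 (1.98).

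Directions turned as follows. Without hMut replicates 6 and 9, the highest hMut hearts for every member, all values fall by construction. Oas1a was then -0.22, Oas1b -0.29, Oas1c -0.27, Oas1g -0.0020, Oas2 -0.11 and Oasl2 -0.060. With limma-voom, which gave weights of 0.166 and 0.299 to these hearts, Oas1a was -0.0930, Oas1b -0.27 and Oas1c -0.0445. With 1 heart left out, Oas1b ran from -0.0196 (without hMut replicate 6) to 0.321 (without hMut replicate 5) and Oas1c from -0.0901 (without hMut replicate 6) to 0.390 (without hMut replicate 2). With the replicate block, Oas1b was -0.11 and Oas1c -0.0815, the pathway count was 0 and 195 genes were called in all, though the labels do not say that equal numbers are paired. The block also takes hMut replicate 9, which has no Ctrl partner, out of the comparison, so that its effect and the loss of that heart cannot be told apart. The remaining 190 of 206 values listed by member kept direction and side of the threshold. The 206 values include the fits of summed Oas1 copies, entered once under each member they hold. Members above every Ctrl heart became 2 in hMut replicate 1, 1 in replicate 3 and 4 in replicate 4 when scaled by total counts without mtDNA-encoded genes, and with either scaling they stayed 8 in replicates 6 and 9. The causes of these shifts were not tested. Low depth limits Oas1c, Oas1g and Oas3, which had 12 to 51 counts per Ctrl heart.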
